A study of Homo sapiens with 4 samples.

Results

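The 50 genes described here encode the proteins that copy DNA and those that bring a cell into S phase, and their transcripts were measured in Hep3B cells, a line from a human liver carcinoma, with and without knockdown of UNC50, which encodes a membrane protein of the Golgi apparatus. They were listed by gene name, with earlier results of these data known, and all 50 were found among the 34805 gene names on the array. Each gene was read from the probe with the highest mean signal among the probes that carry its name. The 50 genes had 62 such probes in 148 spots, and 11 of them had more than 1 probe. All cells were Hep3B cells that had been transfected with a plasmid expressing a short hairpin RNA (shRNA) and selected with puromycin, the control cells included. The control was a mock hairpin (shR-MOCK, 1 array), and UNC50 was targeted with the hairpins shR-467, shR-554 and shR-749, each on an array of its own and named for the position in base pairs of the UNC50 mRNA that they match. The methods describe the selection of transfected cells and no isolation of clones. The 3 hairpins were treated as 3 replicates of UNC50 knockdown, which means that the spread between them includes effects of a single hairpin, and the spread between control cultures is not known.

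DNA replication starts from origins on which the MCM helicase ring has been loaded during G1 by CDC6 and CDT1, a step called licensing. In S phase the helicase is activated by further factors, the strands are unwound, primase and the DNA polymerases copy them, and the PCNA clamp holds the polymerases on the template. Many of these genes are switched on together at the border of G1 and S by transcription factors of the E2F family, which are held back by the retinoblastoma protein until cyclin D and cyclin E kinases inactivate it. According to the study, Hep3B cells are without the genes of this protein and of p53. The probe named for RB1, the retinoblastoma gene, was nevertheless well above background on every array. With mock it stood at percentile 48.5 of the genes tested. Whether its signal comes from an intact RB1 transcript was not tested. Tumour cell lines, in which many cells are cycling, usually express the whole set.

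Each value below is the processed signal of a probe divided by the 75th percentile of the signals of its array, called the scaled signal, so that a scaled signal of 1 equals that percentile. A log2 difference is that of a hairpin array from the mock array, and values for the hairpins always follow their position on the mRNA, with shR-467 ahead of shR-554 and then shR-749. The UNC50 probe had a scaled signal of 4.47 with mock and 1.07, 0.614 and 0.838 with the hairpins, with every hairpin array below mock. All 12 markers of hepatocytes were well above background on all 4 arrays. Their summed scaled signal was 739 with mock and 1022, 826 and 889 with the hairpins. Of 10 markers of leukocytes, endothelial cells and fibroblasts, 8 were well above background with mock and 7, 6 and 6 with the hairpins. The 2 collagen genes were not well above background on any array. The summed scaled signal of all 10 was between 2.03 and 3.50, and most of it came from CD14 (1.56 with mock and 2.81 with shR-467). All 4 arrays lay on 1 slide that was read in 1 scan.

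The sequences in front of the genes were searched as well. The genes were listed by name and not by sequence. Many of them are known to be switched on by E2F factors, so the share of E2F words is not independent of their choice. RefSeq gives the sequence from 250 bases before to 50 bases after the transcription start (build GRCh38.p14) for 42 of the 50 genes, in 53 windows, since 9 genes have several starts, some with overlapping windows. The genes without a window in this table were CCNE2, DNA2, GINS4, MCM4, MCM5, POLD3, RPA2 and RPA3. These windows were searched on both strands for 4 words of the E2F motif, TTTGGCGC, TTTCGCGC, TTTCCCGC and TTTGCCGC. At least 1 of the words stood in 24 of the 53 windows (45.3%), against 4.10% of the 22199 windows of protein-coding genes and 3.31% of all 35116 windows. Counted by gene, 23 of the 42 genes held such a word. The windows were also searched for the CCAAT box (CCAAT), the GC box (GGGCGG) and the cell cycle homology region of mitotic genes (TTTGAA). The CCAAT box was found in 58.5% of the windows of these genes and 34.7% of those of protein-coding genes, the GC box in 75.5% and 56.3%, and the mitotic motif in 3.77% and 12.4%. Of the 31 matches of E2F words, 3 shared letters with a GC box. A match says only that these letters are present.

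**Figure D1:**
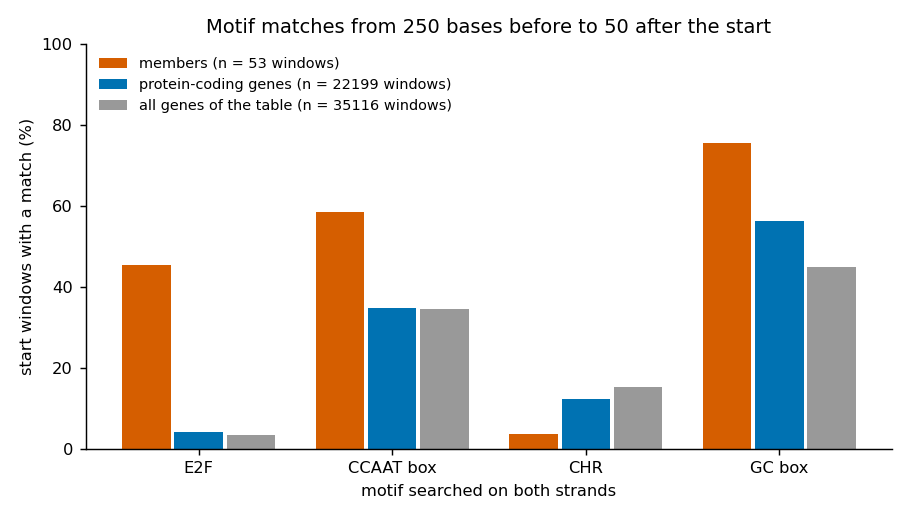
Share of transcription start windows (y axis, %) that hold a match to the E2F words, the CCAAT box, the mitotic cell cycle homology region (CHR) and the GC box (x axis), for the replication and S-phase genes (orange), protein-coding genes (blue) and all genes of the RefSeq table (grey). The orange bar reaches 45.3% for the E2F words, against 4.10% and 3.31% for the other bars, and is the lowest of its group only for CHR (3.77%).

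The stretches below show where these words lie in the genes whose transcripts are described in most detail, with E2F words in capitals, each read 5′ to 3′ on the strand of the gene and ending before the transcription start. MCM6 held the E2F word on both strands at 2 places, so that the capitals run on over 12 letters, and E2F1 carried a pair of E2F words in front of its own start. In RRM2 no E2F word was found, and the capitals mark 3 CCAAT boxes instead.
MCM6, chr2:135876502-135876615, minus strand: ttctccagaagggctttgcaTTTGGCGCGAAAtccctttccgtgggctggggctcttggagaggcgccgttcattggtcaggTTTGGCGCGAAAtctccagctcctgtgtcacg
PCNA, chr20:5126654-5126701, minus strand: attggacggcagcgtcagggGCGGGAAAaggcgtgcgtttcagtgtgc
MCM7, chr7:100101398-100101604, minus strand: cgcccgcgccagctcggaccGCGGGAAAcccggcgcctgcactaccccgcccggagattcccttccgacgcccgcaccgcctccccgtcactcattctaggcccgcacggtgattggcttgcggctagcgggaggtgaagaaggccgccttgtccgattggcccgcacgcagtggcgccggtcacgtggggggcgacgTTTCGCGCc
E2F1, chr20:33686386-33686438, minus strand: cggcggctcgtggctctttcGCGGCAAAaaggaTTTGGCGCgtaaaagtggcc
E2F2, chr1:23531248-23531295, minus strand: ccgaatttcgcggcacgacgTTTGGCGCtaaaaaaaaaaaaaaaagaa
UHRF1, chr19:4909467-4909500, plus strand: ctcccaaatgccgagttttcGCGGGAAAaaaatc
RRM2, chr2:10122596-10122697, plus strand: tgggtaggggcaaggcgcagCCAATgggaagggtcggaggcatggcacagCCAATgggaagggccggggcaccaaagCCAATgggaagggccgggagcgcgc

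Judged by the probes that carry their names, all 50 genes were expressed. For FEN1 and UHRF1 this is less sure, since their probes are annotated to other chromosomes, as described below. Each was well above background on all 4 arrays, so all of them passed the filter that kept 24902 genes for testing. On the mock array their median level was at percentile 84.7 of the genes tested, and 48 genes stood above percentile 50, 40 above percentile 75 and 20 above percentile 90. The lowest was CDC6, at percentile 46.8, and the highest were MCM7 and TK1, both at percentile 99.1. With the hairpins the median percentile was 84.4, 85.1 and 85.7. A percentile sets different probes side by side and is only a rough guide to the order of the transcripts.

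After UNC50 knockdown most of the genes lay close to their mock level and slightly below it. The median of their mean log2 differences was -0.10, with quartiles at -0.22 and 0.01, against -0.03 for all genes tested and 0.00 for the 21231 genes well above background on all 4 arrays. The mean difference was below 0 for 37 of the 50 genes (74.0%) and above 0 for 13, against 54.3% below 0 among all genes tested and 49.4% among those well above background on all 4 arrays. By hairpin, the median of the 50 genes was -0.09, -0.08 and -0.15. The mean lay within 0.32 of mock on the log2 scale for 44 of the 50 genes (88.0%), against 73.8% of all genes tested and 80.0% of those well above background on all 4 arrays. For 43 genes (86.0%), each of the 3 hairpins was within 1.5-fold of mock, against 65.5% and 74.1%. The hairpins also differed less from each other in these genes, with a median SD between hairpins of 0.15, against 0.25 and 0.22. The mean difference was larger than the SD between hairpins for 22 of the 50 genes (44.0%), and for 35.1% of all genes tested. Closeness to mock and a small spread were also seen in 74 other replication and S-phase genes, described below. Of these, 89.2% had a mean within 0.32 of mock and 90.5% had every hairpin within 1.5-fold, with a median SD of 0.14. For 23 mitotic genes the values were 87.0%, 95.7% and 0.17. The comparisons with all genes were not matched for signal level.

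By the 1.5-fold rule on the mean of the hairpins, which the methods of the study use, 1 of the 50 genes was lower, RRM2, and none was higher. Among all genes tested 7.47% were lower and 2.28% were higher by this rule, and among those well above background on all 4 arrays 2.87% and 2.34%. None of the 50 genes was at least 1.5-fold lower with every hairpin, where the share of all genes was 1.18%, or at least 1.5-fold higher with every hairpin, where it was 0.534%. Leaving size aside, 19 of the 50 genes (38.0%) were lower with every hairpin, against 20.5% of all genes, and 2 were higher with every hairpin, PCNA and RPA2, against 17.6%. Since the 3 differences of a gene share the mock array, they tend to have the same sign without being independent. In limma's test across all genes, 0 of the 50 genes passed an adjusted p of 0.05, as did 0% of all genes tested, and the adjusted p was 1.00 for RRM2, MCM7 and PCNA. At an unadjusted p under 0.05, limma picked 1 of the 50, RRM2, and 1.51% of all genes. An exact permutation test of 1 array against 3 cannot give a p below 0.25. Limma's adjusted test did not call UNC50, the target of the hairpins. The absence of a call therefore does not show that a gene was unchanged. In RNA from a whole culture, fewer cells in S phase and less of a transcript in each cell cannot be told apart.

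**Figure D2:**
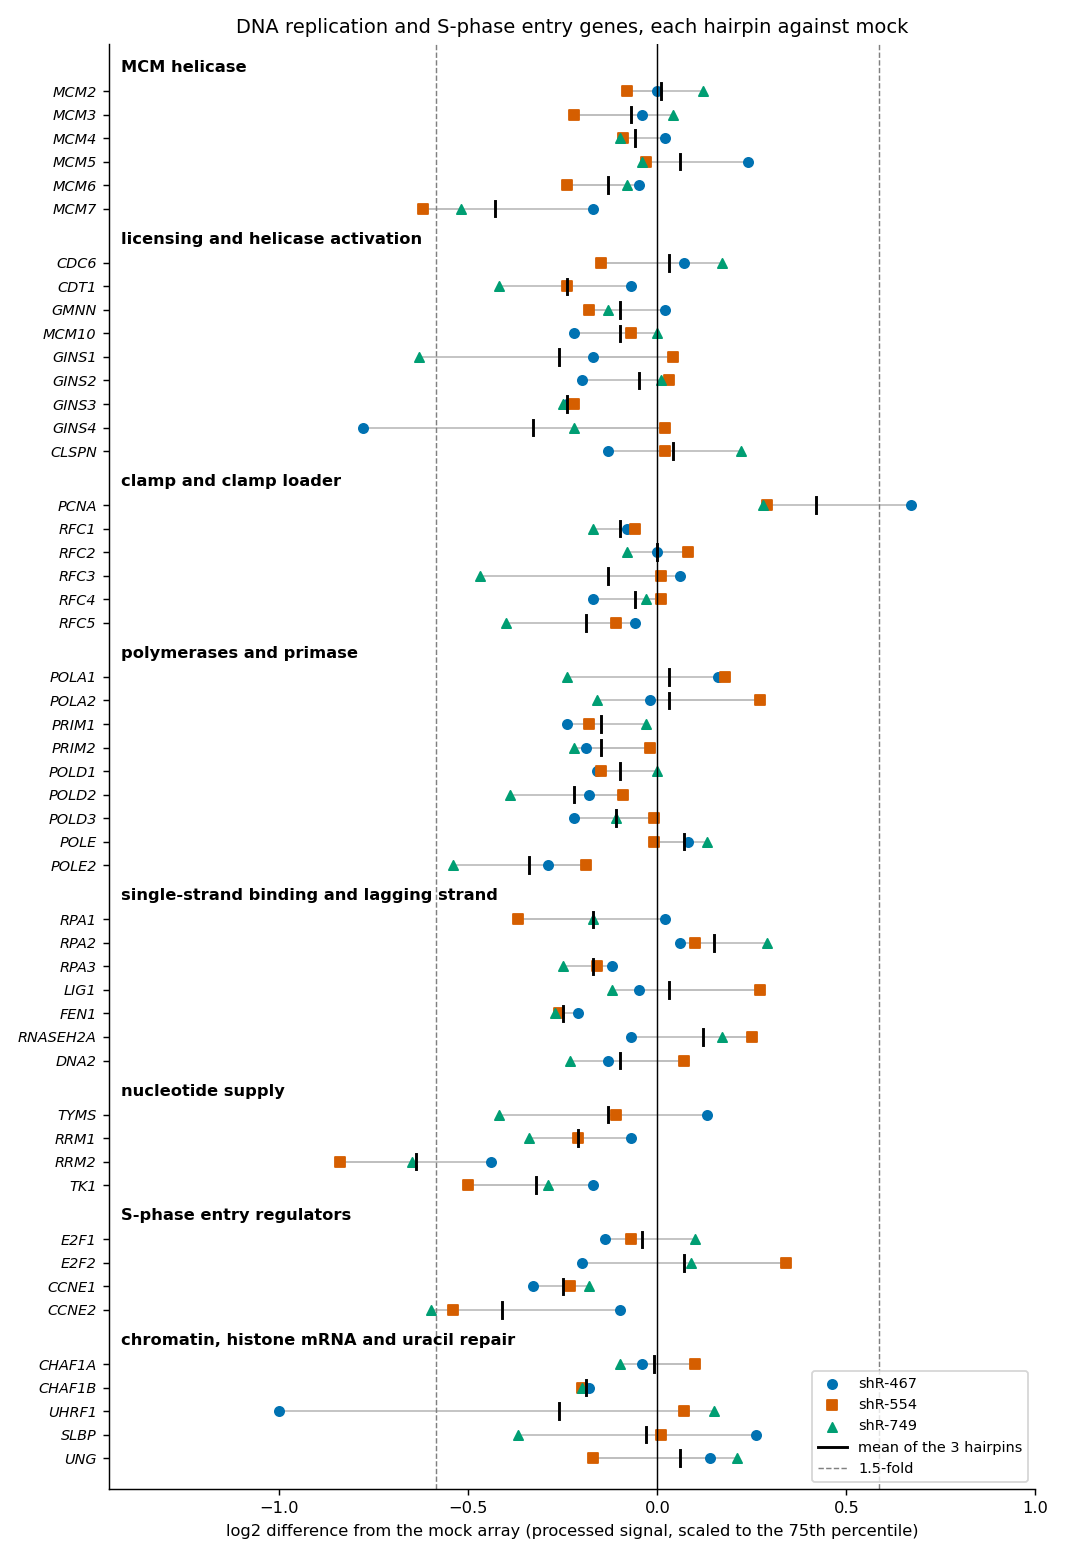
Log2 difference from the mock array (x axis) of each of the 50 genes (y axis, grouped by role), with 1 point per hairpin, a black tick at the mean of the 3 hairpins and dashed lines at 1.5-fold. The quartiles of the means are -0.22 and 0.01, and the RRM2 mean at -0.64 is the only one past a dashed line.

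**Figure D3:**
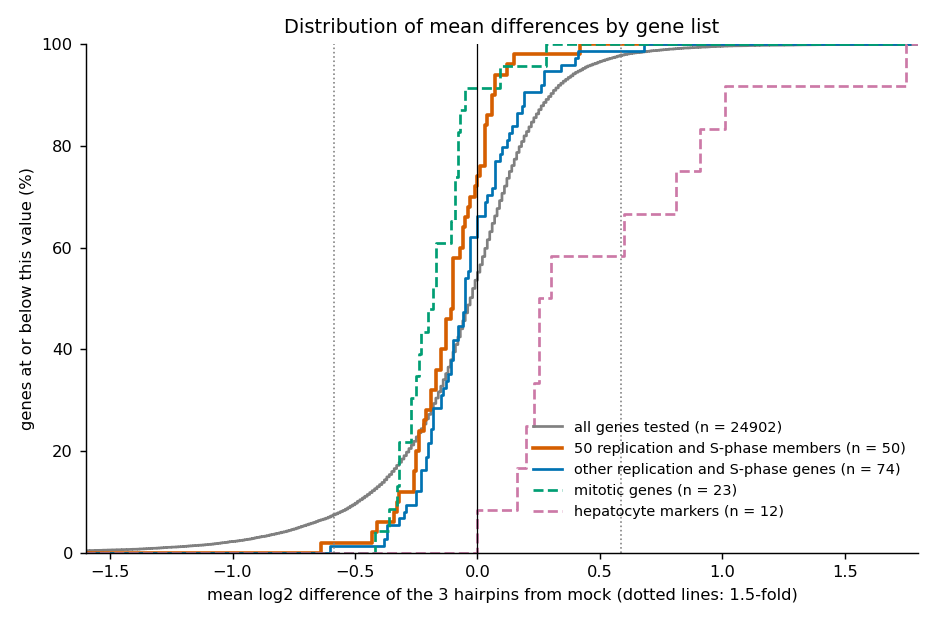
Cumulative share of genes (y axis, %) at or below a given mean log2 difference from mock (x axis), for the 50 genes (orange), 74 other replication and S-phase genes (blue), 23 mitotic genes and 12 hepatocyte markers (dashed) and all 24902 genes tested (grey). The orange curve is steeper than the grey one and crosses the 50% line at -0.10, and the hepatocyte markers lie to the right of 0.

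RRM2 had the lowest mean difference of the 50 genes. RRM2 encodes the small subunit of ribonucleotide reductase, which makes deoxyribonucleotides and is limiting for their supply in S phase. Its probe, of 2 spots at chr2:10270487-10270546 (hg19, plus strand), had a scaled signal of 2.08 with mock and 1.53, 1.16 and 1.33 with the hairpins. The single mock array was thus the highest of the 4, as it was for 20.5% of all genes tested. The hairpins stood at 73.5%, 55.9% and 63.8% of mock. The mean log2 difference was -0.64 ± 0.20 (SD, n = 3 hairpins), or 1.56-fold lower, and the SD between the 2 spots of an array was at most 0.026. RRM2 passed the 1.5-fold rule through shR-554 and shR-749, and without shR-554 its mean was -0.55, short of the threshold of -0.58.

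The partner subunit RRM1, which carries the active site of the enzyme, was at 95.2%, 86.6% and 79.1% of mock, with a mean of -0.21 ± 0.13. TK1, the thymidine kinase that recovers thymidine, is among the brightest of the 50 genes, and its scaled signal was 60.1 with mock and 53.3, 42.5 and 49.0 with the hairpins. Every hairpin array lay below mock for RRM1 and TK1, and the mean of TK1 was -0.32 ± 0.17. TYMS, the thymidylate synthase, was above mock with shR-467 (0.13) and below it with shR-554 (-0.11) and shR-749 (-0.42). The 4 genes of nucleotide supply had a median of -0.26, the lowest of the 8 role groups, and none of them had a mean above 0. In 12 other nucleotide synthesis genes, outside the 50, the median was 0.02 and 7 means were above 0.

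**Figure D4:**
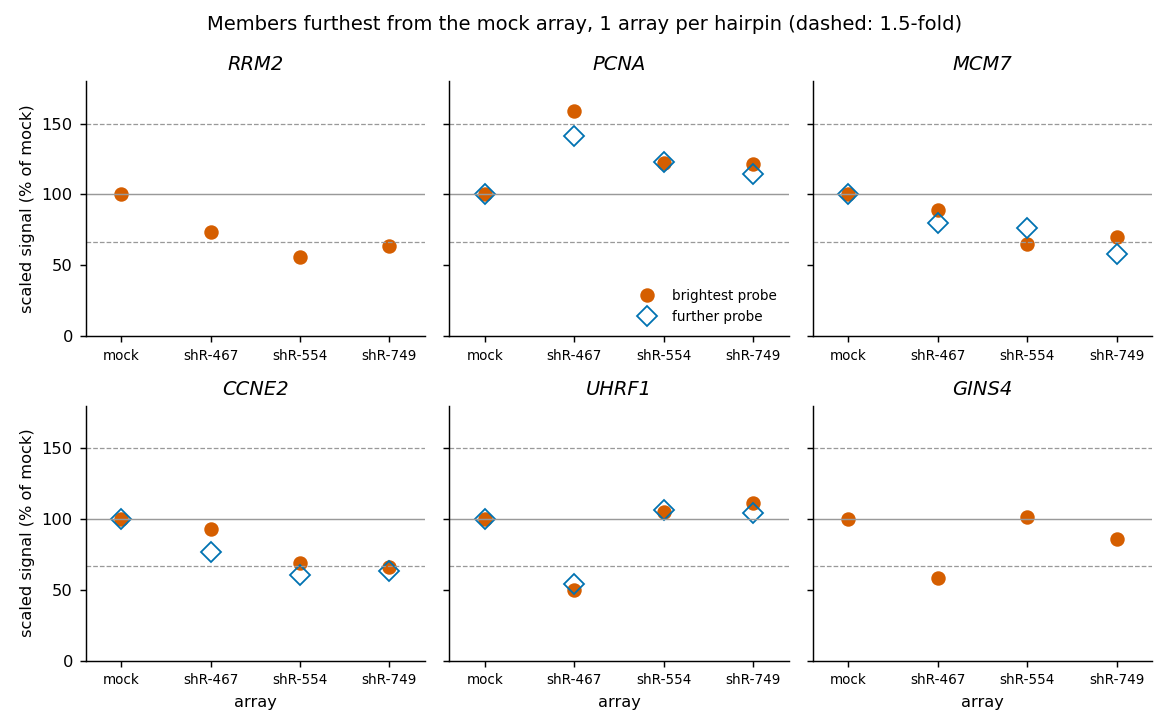
Scaled signal as a percentage of the mock array (y axis) on each array (x axis) for 6 genes, with filled circles for the brightest probe and open diamonds for a further probe of the same gene, and dashed lines at 1.5-fold. RRM2 lies at 73.5%, 55.9% and 63.8% of mock, PCNA is above mock with both probes, and UHRF1 is at 50.1% with shR-467 and above mock with the others.

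PCNA encodes the sliding clamp and had the highest mean difference of the 50 genes. Its scaled signal was 9.14 with mock and 14.6, 11.2 and 11.1 with the hairpins, as the mean of 10 spots whose SD on an array was between 0.027 and 0.044 on the log2 scale. The mock array was the lowest of the 4, and shR-467 stood apart from the other hairpins. The mean log2 difference was 0.42 ± 0.22 (SD, n = 3 hairpins), or 1.33-fold higher, with shR-467 alone past 1.5-fold (0.67). A further PCNA probe, at chr20:5098164-5098223 (hg19), gave the same order, with log2 differences of 0.50, 0.30 and 0.19.

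The clamp loader, the RFC complex that opens PCNA and places it on DNA, had values on the other side of mock or close to it. Its subunits RFC1, RFC2, RFC3, RFC4 and RFC5 had mean differences between -0.19 (RFC5) and 0.00 (RFC2). RFC4, the brightest of them, had scaled signals of 15.3 with mock and 13.5, 15.4 and 14.9 with the hairpins, so that mock lay inside the range of the hairpin arrays. RFC1 and RFC5 were below mock with every hairpin, RFC1 by at most 0.17 and RFC5 by 0.06, 0.11 and 0.40 on the log2 scale. RFC3 was near mock with shR-467 (0.06) and shR-554 (0.01) and lower with shR-749 (-0.47), and its further probe repeated this with -0.01, 0.02 and -0.33.

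Of the MCM2 to MCM7 subunits of the replicative helicase, which together form a ring around DNA, MCM7 lay furthest from mock. The scaled signal of MCM7 was 59.7 with mock and 53.2, 39.0 and 41.8 with the hairpins, so all hairpin arrays lay below mock and shR-554 and shR-749 lay furthest. Its mean log2 difference was -0.43 ± 0.24, and a dimmer further probe gave -0.33, -0.39 and -0.79, with a mean of -0.50 ± 0.25. The brightest probe lies at chr7:99690520-99690579 and the further one at chr7:99697277-99697336 (hg19). The means of MCM2, MCM3, MCM4, MCM5 and MCM6 lay between -0.13 and 0.06, and the 3 hairpins of each stood on both sides of mock except for MCM6 (-0.05, -0.24 and -0.08). The further probe of MCM5 gave higher values than the brightest one, 0.50, 0.30 and 0.24 against 0.24, -0.03 and -0.04.

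The loading and activation factors were near mock, with a median of -0.10 over 9 genes. CDC6 and CDT1, which load the helicase, had means of 0.03 ± 0.17 and -0.24 ± 0.17. CDT1 was below mock with every hairpin (-0.07, -0.24 and -0.42), while GMNN, which encodes the CDT1 inhibitor geminin, had a scaled signal of 15.3 with mock and stood at 101%, 88.6% and 91.3% of it with the hairpins. MCM10, which helps to activate the helicase, and CLSPN, which encodes the fork and checkpoint protein claspin, had means of -0.10 ± 0.11 and 0.04 ± 0.18.

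The 4 GINS subunits form a complex that joins the active helicase, and the hairpins differed most from each other in GINS1 (SD 0.34) and GINS4 (SD 0.41). GINS3 was at 84.5%, 85.8% and 84.3% of mock, with an SD between hairpins of 0.01. GINS2, read from 10 spots, had a mean of -0.05 ± 0.13. GINS4 had a scaled signal of 2.53 with mock and 1.47, 2.57 and 2.17 with the hairpins, so that it was past 1.5-fold with shR-467 alone (-0.78). GINS1 was past it with shR-749 alone (-0.63), against -0.17 with shR-467 and 0.04 with shR-554. GINS1 and GINS4 were each read from 1 spot per array, so the error between spots is not known for them.

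Among the polymerases and primase, POLE2, the second subunit of polymerase epsilon, had the lowest values. Its scaled signal was 0.839 with mock and 0.686, 0.737 and 0.577 with the hairpins, with mock the highest of the 4 and a mean of -0.34 ± 0.18. POLE, the catalytic subunit of the same enzyme, was at 0.199 with mock and 0.211, 0.198 and 0.217 with the hairpins, and is among the dimmest of the 50 genes, at percentile 47.5. POLE and POLE2 therefore had means on different sides of 0, 0.07 and -0.34.

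The primase subunit PRIM1 had a scaled signal of 3.78 with mock and 3.20, 3.33 and 3.69 with the hairpins. PRIM1 and PRIM2 were below mock with every hairpin, each with a mean of -0.15 ± 0.11, as were the polymerase delta subunits POLD2 (-0.22 ± 0.15) and POLD3 (-0.11 ± 0.10). The delta catalytic subunit POLD1 had a mean of -0.10 ± 0.09. POLA1 and POLA2, subunits of the polymerase alpha that starts each strand, both had means of 0.03, with hairpins on both sides of mock. With the brightest probes, no gene of this group was past 1.5-fold with any hairpin. A further PRIM2 probe was past it with shR-749 (-0.91), and another PRIM2 probe stood on both sides of mock (0.05, 0.20 and -0.21).

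RPA1, RPA2 and RPA3 encode the trimer that coats unwound DNA, and here too the subunits differed in sign. RPA2 was the only gene besides PCNA above mock with every hairpin, with a scaled signal of 3.11 with mock and 3.24, 3.33 and 3.81 with the hairpins and a mean of 0.15 ± 0.13. Its further probe gave -0.02, -0.07 and 0.14, so with that probe the hairpins stood on both sides of mock. RPA3 was below mock with every hairpin, with scaled signals of 29.7, 27.4, 26.6 and 25.0 and a mean of -0.17 ± 0.07. RPA1 had a mean of -0.17 ± 0.20.

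The enzymes that finish the lagging strand lay close to mock. FEN1, the flap endonuclease, was at 86.4%, 83.6% and 82.8% of mock with a mean of -0.25 ± 0.03. RNASEH2A, the catalytic subunit of ribonuclease H2, had a scaled signal of 9.02 with mock and stood at 95.6%, 119% and 113% of it with the hairpins, on both sides of mock. The ligase LIG1 and the nuclease and helicase DNA2 had means of 0.03 ± 0.21 and -0.10 ± 0.15. The array annotation places the FEN1 probe on chromosome 1, where RefSeq lists the pseudogene FEN1P1, and not on chromosome 11, where RefSeq has FEN1, and whether its signal belongs to FEN1 alone was not tested.

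Of the regulators of S-phase entry, the cyclins E were below mock with every hairpin, and E2F1 and E2F2 stood on both sides of it. CCNE1 had a scaled signal of 14.3 with mock and 11.4, 12.2 and 12.7 with the hairpins, with mock the highest and a mean of -0.25 ± 0.08. CCNE2 stood at 1.21 with mock and 1.13, 0.838 and 0.804 with the hairpins, also with mock the highest. Its mean was -0.41 ± 0.27, with shR-749 past 1.5-fold (-0.60). A further CCNE2 probe, dim but well above background on all 4 arrays, gave lower values, -0.38, -0.72 and -0.66, and its mean of -0.59 ± 0.18 was just past the 1.5-fold threshold of -0.58.

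E2F1, read from 10 spots, had log2 differences of -0.14, -0.07 and 0.10, with a mean of -0.04 ± 0.12. E2F2 had a scaled signal of 3.57 with mock and 3.10, 4.51 and 3.79 with the hairpins, so that mock lay between them. These 2 factors activate transcription at the entry into S phase.

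UHRF1, which brings the maintenance DNA methyltransferase to newly copied DNA, gave the widest spread between hairpins of the 50 genes. Its scaled signal was 3.03 with mock and 1.52, 3.18 and 3.36 with the hairpins, so it stood at 50.1% of mock with shR-467 and at 105% and 111% with the others. The mean of -0.26 ± 0.64 is therefore within the spread between hairpins. A further probe, dimmer and of 1 spot, gave -0.88, 0.09 and 0.06. The array annotation places both UHRF1 probes on chromosome 12 and RefSeq has the gene on chromosome 19, and which transcripts they read was not tested. UHRF1, GINS1 and GINS4 are singled out here for a difference with a single hairpin, after their values had been seen.

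CHAF1A and CHAF1B, subunits of the chromatin assembly factor that puts histones on new DNA, had means of -0.01 ± 0.10 and -0.19 ± 0.01. SLBP, which binds the stem and loop of histone mRNAs, had a scaled signal of 17.8 with mock and 21.3, 17.9 and 13.8 with the hairpins, and UNG, which removes uracil from DNA, stood at 110%, 88.9% and 116% of mock. Mock lay inside the range of the hairpins for CHAF1A, SLBP and UNG, and CHAF1B was below mock by 0.18, 0.20 and 0.20 on the log2 scale.

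Taken by hairpin, few of the 50 genes were past 1.5-fold. With shR-467 PCNA was higher (7.18% of all genes tested were) and GINS4 and UHRF1 were lower (6.73%). With shR-554 no gene of the set was higher (4.39%), and MCM7 and RRM2 were lower (15.5%). With shR-749 no gene was higher (5.37%), and GINS1, RRM2 and CCNE2 were lower (10.1%). These counts compare 2 arrays and have no replicate. The shares in brackets cover all genes tested, dim ones included. With the brightest probes, only RRM2 was named with more than 1 hairpin. The further probe of CCNE2 was past 1.5-fold with shR-554 (-0.72) and shR-749 (-0.66), and that of MCM7 with shR-749 (-0.79).

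Besides the brightest probes, 12 further probes carried the names of 11 of the genes. All 12 were well above background on all 4 arrays and lay within 1.5-fold of the brightest probe in the mean difference, and 10 of 12 had the same sign. The exceptions were the further probe of CHAF1A (0.03 against -0.01) and 1 of the 2 further probes of PRIM2 (0.01 against -0.15). The other further probe of PRIM2 gave -0.53 ± 0.39, with -0.55, -0.14 and -0.91 for the hairpins. The dimmest further probes were those of POLE, CCNE2, PRIM2 and RPA1, with processed signals between 90.4 and 256 on the mock array, and those of POLE and RPA1 gave means of 0.27 ± 0.16 and -0.17 ± 0.61.

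The sequence in front of the genes can be set beside their differences. The 23 genes with an E2F word had a median mean difference of -0.05, from -0.43 (MCM7) to 0.42 (PCNA), and 5 of them (21.7%) were lower with every hairpin, against 20.5% of all genes tested. The 19 genes with a window but no E2F word had a median of -0.15, from -0.64 (RRM2) to 0.12 (RNASEH2A), and 11 of them (57.9%) were lower with every hairpin. The mean was below 0 for 13 of the 23 genes with an E2F word and for 18 of the 19 without one. Whether the word bears on the difference was not tested.

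Other genes of the same processes, taken from 4 lists of origin and firing factors, fork proteins, nucleotide synthesis and the E2F and RB network, were also near mock. Of 75 such genes 74 were tested, with a median of -0.05, 13 higher (17.6%) and 20 lower (27.0%) with every hairpin, against 17.6% and 20.5% of all genes tested. By the mean, E2F5, a repressor E2F, was higher (0.68 ± 0.05) and CDK2, the kinase of cyclin E, was lower (-0.60 ± 0.52) past 1.5-fold, and limma called none at an adjusted p of 0.05 and only E2F5 at an unadjusted one. Among the genes tested in the other lists, the largest differences were 0.41 for TOPBP1 and 0.26 for TICRR among the firing factors, and 0.40 for SUPT16H and -0.20 for CHTF8 among the fork proteins. In nucleotide synthesis SHMT1 had a mean difference of 0.27.

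Genes that act before and after S phase had medians further below 0 than the replication genes. Of 12 G1 cyclins, kinases and inhibitors 10 were tested, with a median of -0.29. CCND1, cyclin D1, had scaled signals of 0.416 with mock and 0.222, 0.130 and 0.165 with the hairpins, and a mean of -1.31 ± 0.39. CDKN1C, the inhibitor p57, was also lower (-0.78 ± 0.61), and CDKN1A, the inhibitor p21, was higher (0.66 ± 0.21), both past 1.5-fold on average. Limma called none of the 10 at an adjusted p of 0.05, and 2 at an unadjusted one, CCND1 and CDKN1A. Of 23 mitotic genes tested, 14 were lower with every hairpin (60.9%) and 1 was higher (4.35%), against 20.5% and 17.6% of all genes tested, with a median of -0.18, and PLK1 (-0.42 ± 0.29) and BIRC5 (-0.36 ± 0.18) were furthest from mock. The array annotation places the PLK1 probe on chromosome 8 and RefSeq has the gene on chromosome 16, and which transcript it reads was not tested. The hepatocyte markers had a median of 0.27, with all 12 means above 0 (the lowest was 0.00, for APOA2) and with FGB (1.75 ± 1.02) and APOA1 (1.01 ± 0.38) highest. Of the markers of other cell types 8 were tested, with a median of 0.00, and LUM (0.67 ± 0.30) and DCN (-0.46 ± 0.90) were furthest from mock. DCN was dim, at percentile 5.90 on the mock array, and was not well above background with shR-554 or shR-749. The part of such differences in the values of the replication genes was not tested.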

How the data were processed

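Total RNA of Hep3B cells carrying shR-MOCK (1 array) or 1 of 3 hairpins against UNC50 (1 array each) was labelled with Cy3 and hybridised to 1-colour Agilent arrays. The authors deposited the intensity of each spot as given by Agilent Feature Extraction 10.7.1.1, with the background already subtracted in the processed signal, and a table of log2 values for the same arrays, which the authors had normalized by quantiles as far as the values show (median absolute difference 0.00110 from recomputed values). Probe positions come from the hg19 annotation in the scanner files. Processed signals were divided by the 75th percentile of their array (978 to 1390 in scanner units) and put on the log2 scale. Spots of controls and marked outliers were dropped before averaging over a probe's spots. Of 58717 spots other than controls per array, 67.65% to 73.59% were well above background and none was saturated. The number of arrays limits the precision. Genes were tested when their probe was well above background with mock or with every hairpin (24902 genes, 15266 of them with a RefSeq name).

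Differences were tested with limma 3.58.1 in R 4.3.3 (lmFit and eBayes with trend, Benjamini-Hochberg adjustment over all genes tested, 2 residual and 4.92 prior degrees of freedom), which takes the spread of the single mock array to be that of the hairpins. The steps were tested on simulated data. Tables were made in Python 3.11.15 (pandas 2.3.3, numpy 2.4.6) and plots with matplotlib 3.10.9. The genes, gene lists and motifs were chosen with earlier results of these data known, and nothing in these counts is independent support. Values on all 4 arrays are given for the 6 highest and 6 lowest means, for each gene past 1.5-fold on average and for the brightest gene of each role, and for the other lists the 2 largest differences each, except for 1 gene that is not reported here. GINS1 and UHRF1 were added with their values in view. Other scalings, background correction, filters, probe rules and thresholds were tried as alternatives, as were limma with no trend, the methods' t-test and leaving out each hairpin. Promoter windows and gene names are from RefSeq (GRCh38.p14).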

Additional observations from a re-analysis of the deposited data

How the results depend on the processing

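The median difference of the 50 genes was between -0.12 and -0.08 under all alternatives that were run, and 0 of them passed limma's adjusted p in any, although limma called 4 other genes after normexp correction and 1 without replicate 2 (shR-554). Under the main setting limma's adjusted test did not call UNC50 itself. RRM2 was the only one of the 50 genes lower on average under every scaling, filter and probe rule. At a 2-fold threshold 0 genes were lower on average. At a lower threshold of 0.32 on the log2 scale 5 were (MCM7, GINS4, POLE2, RRM2 and CCNE2) and 1 was higher (PCNA), and 1 gene was lower with every hairpin (RRM2). Leaving out each hairpin in turn gave 0 (without shR-554) to 1 genes lower on average, 0 to 1 (RRM2, without shR-467) at least 1.5-fold lower with both remaining hairpins, and 5 to 7 higher with both at any size, where fewer arrays have to share a sign. The 19 genes lower with every hairpin became 23 to 27 when a hairpin was left out and 18 to 23 under the other settings. With the mean over the probes of a gene, 4 genes were higher with every hairpin (MCM5, PCNA, POLE and RPA2), and POLE had a mean of 0.17. The methods' t-test gave 3 of the 50 genes at an unadjusted p under 0.05 (GINS3, FEN1 and CHAF1B, all with an SD between hairpins of at most 0.03) and 642 genes in all, and 0 after Benjamini-Hochberg adjustment. Of 381 values recomputed, 369 kept their call or stayed within the spread, 12 did not, and 0 changed sign past 1.5-fold. For the counts that moved, the cause was not tested beyond the change of threshold or of the number of arrays. A block for slide or scan could not be fitted, since all arrays shared 1 slide and 1 scan. No paired analysis was possible because there was only 1 mock array.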
